A study of Mus musculus with 6 samples.

Results

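Triglyceride synthesis and glycerol supply was examined through 10 genes, each found by its symbol among the 47729 genes of the expression tables: *Pck1*, *Gpd1* and *Aqp7*, which supply glycerol or glycerol 3-phosphate, *Gpam*, *Agpat2*, *Lpin1*, *Lpin2* and *Lpin3*, which act on the path from glycerol 3-phosphate to diacylglycerol, and *Dgat1* and *Dgat2*, which add the last acyl chain. RNA-Seq was performed on interscapular brown adipose tissue (BAT) of male wild type C57BL/6J mice, 6 weeks of age at the start of feeding and 10 weeks at the end. For 4 weeks, 3 mice received a 45% high-fat diet (HFD) and 3 received a standard rodent diet (LFD). The mice sequenced in each diet were those with the greatest, the medium and the least fat mass, and which number carried which fat mass is not given in the sources used here. Each library came from the right side of the tissue of 1 mouse, and the total of estimated counts ran from 17156991 to 21603487 per mouse.

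Triglyceride is built on a glycerol 3-phosphate backbone by successive acylations, with a phosphatase step before the final one. Adipocytes make the backbone mainly by reducing a glycolytic or glyceroneogenic intermediate, since glycerol kinase is low in white adipocytes and higher in brown ones. In BAT the stored triglyceride is both a lipid depot and a fuel for thermogenesis, so synthesis and lipolysis run side by side.

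The tissue was checked against markers before the diets were compared. *Ucp1*, the uncoupling protein that defines brown adipocytes, was at 2728, 4021 and 796 TPM (a level scaled to the library's total and corrected for gene length) in HFD mice 1, 2 and 3 and at 443, 11.03 and 76.0 TPM in LFD mice 1, 2 and 3. *Ucp1* was thus low in LFD mice 2 and 3, which carry the BAT label. Most of the other brown adipocyte markers were also lower in TPM in these mice than in every HFD mouse. Not every one was low there. *Zic1* was at 5.11 and 11.4 TPM in these mice, against 3.44, 3.01 and 2.98 TPM in the HFD mice and 1.09 TPM in LFD mouse 1. *Ebf2* was at 22.0 and 22.9 TPM, against 13.9, 24.9 and 15.8 TPM in the HFD mice and 12.2 TPM in LFD mouse 1. Of 10 brown adipocyte markers, 9 had a log2 fold change above 0 and 1 below 0. *Acta1*, the actin of skeletal muscle, was at 8.30, 37.9 and 0.68 TPM in the HFD mice and at 872, 2336 and 486 TPM in the LFD mice, and 15 of 16 muscle markers lay lower in every HFD mouse than in every LFD mouse. The summed TPM of 8 general adipocyte markers was 8300, 8580 and 5640 in the HFD mice and 24500, 24600 and 5780 in the LFD mice. A large part of the LFD sums was *Cfd*, at 9101, 10850 and 1674 TPM, against 1054, 459 and 351 TPM in the HFD mice. Summed TPM ranged from 327 to 2040 in LFD and from 1830 to 7260 in HFD mice for 10 brown adipocyte markers, and from 158 to 1830 and from 9.97 to 226 for 6 white adipocyte markers. The white adipocyte sum rested on *Retn* and *Lep*. *Retn* ran from 147 to 1686 TPM in LFD and from 6.18 to 160 TPM in HFD mice. *Lep* ran from 10.9 to 143 TPM in LFD and from 3.74 to 65.9 TPM in HFD mice. The white adipocyte markers *Hoxc9*, *Hoxc10* and *Wt1* reached at most 0.55, 0.03 and 0.15 TPM in any mouse, and *Tcf21* was listed at 0 in all 6 mice. These values move with diet or with mouse alongside the results that follow, and their part in those results was not tested. In bulk tissue, fewer cells of a type and less RNA per cell cannot be told apart.

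All 10 genes were transcribed in all 6 mice, and none passed the study's threshold for a difference between diets, an adjusted p under 0.01 with an absolute log2 fold change above 1.5 (edgeR quasi-likelihood test, Benjamini-Hochberg adjustment over 17668 genes). The threshold was passed by 0.0% of all genes tested in this fit, the lowest adjusted p over all genes was 0.17, and 1851 genes had an unadjusted p under 0.05. The study itself applied this threshold to DESeq2 and not to edgeR. Run here, DESeq2 called 412 of 29856 genes at the same threshold, of which 0 were among the 10. The adjusted p (edgeR) of the 10 genes lay between 0.464 and 0.994. Fitted fold changes were below 0 for 7 genes and above 0 for 3, beside 54.4% of all genes below 0, and their median was -0.45 against -0.05 for all genes tested. The spread between mice on the same diet had a median standard deviation of 1.25 in log2 CPM (counts scaled to library size, not corrected for gene length) against 0.49 over all genes tested. That width was shared with other adipocyte genes, since the median was 1.3 over the 8 general adipocyte markers and 1.46 over the 10 brown adipocyte markers.

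**Figure D1:**
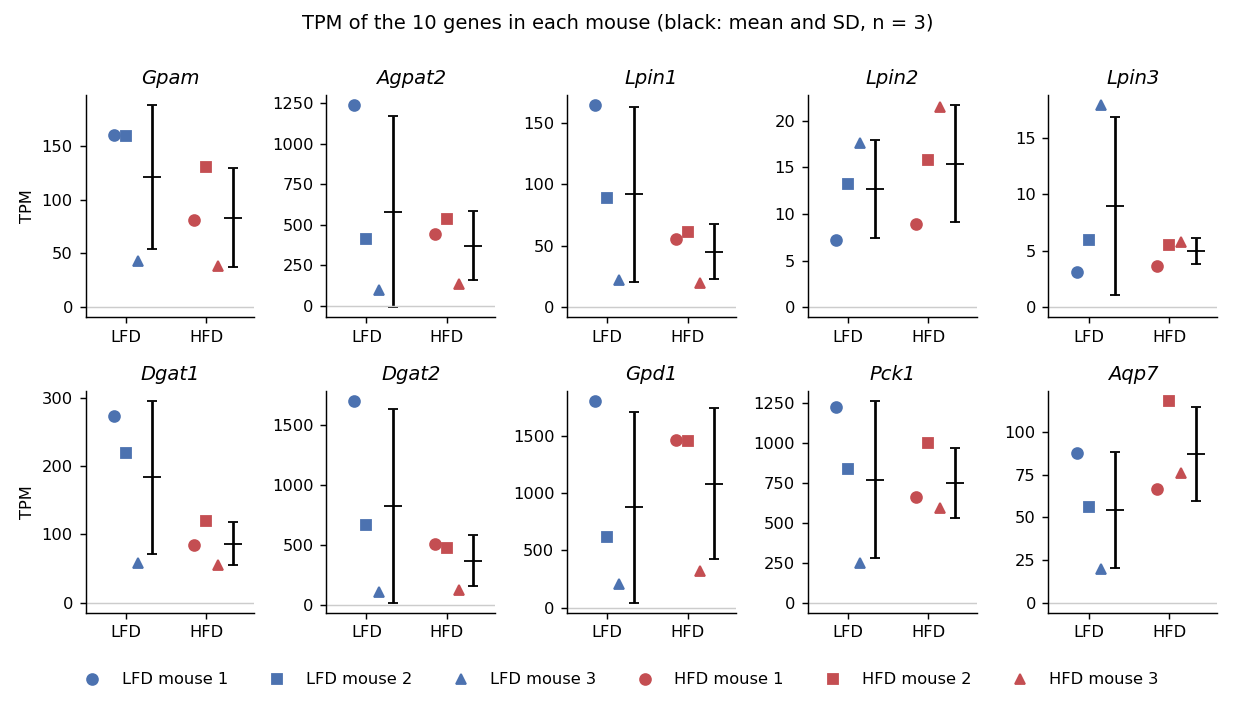
TPM of each of the 10 genes (vertical axis, linear, a scale per gene) in the 3 LFD mice (blue) and the 3 HFD mice (red), with the symbol marking the mouse number and black bars the mean and SD of each diet. The points of the 2 diets overlap in every panel, and *Dgat2* runs from 107 to 1700 TPM among LFD mice alone.

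Promoter sequences are shown for 3 genes whose diets stood apart on some scale, *Lpin2* in log2 CPM and *Pck1* and *Aqp7* relative to adipocyte markers, because these are the members on which the description below turns. Windows of 300 bases, from 250 before to 50 after a RefSeq start site on GRCm38.p6, were matched by symbol for 7 of the 10 genes, 12 windows in all. *Dgat1*, *Dgat2* and *Gpd1* had no window, so *Dgat1*, whose diets also stood apart relative to 7 of the adipocyte markers, could not be shown. *Lpin2* had 3 windows and *Aqp7* had 2, and the one with the most matches is printed for each. The others hold a GC box or CCAAT alone in *Lpin2* and 1 AGGTCA match in *Aqp7*. The *Aqp7* windows overlap, and that match is the same site as the first of the 2 in the printed window. Capitals mark matches, on either strand, to GGGCGG (GC box), TGACG (core of the cAMP response element), CACGTG (E-box) and AGGTCA (nuclear receptor element), and in *Lpin2* the TGACG and CACGTG matches share bases. The windows lie at chr2:173152823-173153122 (+ strand) for *Pck1*, at chr4:41047913-41048212 (- strand) for *Aqp7* and at chr17:71183282-71183581 (+ strand) for *Lpin2*, and each is printed 5′ to 3′ along the gene's strand.
*Pck1*: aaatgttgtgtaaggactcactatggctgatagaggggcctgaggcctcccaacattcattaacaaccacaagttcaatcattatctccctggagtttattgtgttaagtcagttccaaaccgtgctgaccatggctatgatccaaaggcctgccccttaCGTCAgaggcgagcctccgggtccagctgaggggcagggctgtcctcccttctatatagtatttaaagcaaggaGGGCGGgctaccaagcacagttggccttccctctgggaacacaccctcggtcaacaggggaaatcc
*Aqp7*: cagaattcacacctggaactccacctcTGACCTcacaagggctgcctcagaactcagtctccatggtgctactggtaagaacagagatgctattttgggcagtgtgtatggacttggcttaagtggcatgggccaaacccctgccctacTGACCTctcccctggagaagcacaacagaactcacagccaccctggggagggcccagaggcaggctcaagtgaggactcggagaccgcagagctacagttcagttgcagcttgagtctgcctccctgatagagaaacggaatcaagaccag
*Lpin2*: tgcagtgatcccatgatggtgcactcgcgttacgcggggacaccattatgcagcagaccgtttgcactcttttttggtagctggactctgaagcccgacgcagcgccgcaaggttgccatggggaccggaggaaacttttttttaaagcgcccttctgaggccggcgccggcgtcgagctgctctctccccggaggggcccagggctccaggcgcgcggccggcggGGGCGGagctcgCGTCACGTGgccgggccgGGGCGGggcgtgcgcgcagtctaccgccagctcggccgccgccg
In *Pck1* the TGACG match begins at base -90 on the opposite strand, with base 1 as the first transcribed base, and the GC box begins at -16. The *Aqp7* window holds AGGTCA on the opposite strand, beginning at -223 and at -101. The *Lpin2* window holds GC boxes beginning at -24 and 7, a TGACG match on the opposite strand at -12 and an E-box at -9. Over the 12 windows, TATAAA was found in 0, CCAAT in 2, GGGCGG in 6, TGACG in 3, AGGTCA in 4 and CACGTG in 2, and the shares over all RefSeq mouse promoter windows of this length were 13.6%, 37.4%, 35.7%, 20.8%, 16.3% and 7.15%. The AGGTCA site shared by the *Aqp7* windows is counted in both. A match is a string of letters in a window and does not show that a factor was bound there.

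The first group supplies the backbone. *Pck1*, the cytosolic phosphoenolpyruvate carboxykinase of glyceroneogenesis (chr2:173153048-173159273, + strand), was at 661, 1005 and 595 TPM in HFD mice 1, 2 and 3 and at 1230, 838 and 250 TPM in LFD mice 1, 2 and 3. The LFD mice held both the highest and the lowest value, so the HFD range lay inside the LFD range. The mean was 753 ± 220 TPM in HFD and 773 ± 494 TPM in LFD (SD, n = 3 each), and the log2 fold change of HFD over LFD was -0.03 (SE 0.79, edgeR adjusted p = 0.994). The fold change was 0.95 without LFD mouse 1, 0.20 without HFD mouse 3 and 0.44 with the mouse number as a block. The plain difference of mean log2 CPM, without a block, was also 0.44.

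*Gpd1*, the cytosolic glycerol 3-phosphate dehydrogenase that reduces dihydroxyacetone phosphate to the backbone (chr15:99717515-99725005, + strand), was the most abundant of the 10 by mean level. It was at 1461, 1456 and 320 TPM in HFD mice 1, 2 and 3 and at 1805, 615 and 203 TPM in LFD mice 1, 2 and 3. The mice numbered 3 were lowest in both diets, and LFD mouse 1 was the highest of all 6. Mean levels were 1080 ± 658 TPM in HFD and 874 ± 832 TPM in LFD (SD, n = 3 each). On the log2 scale the fitted difference was 0.34 (SE 1.13, edgeR adjusted p = 0.962). The fold change was 2.03 without LFD mouse 1, -0.30 without HFD mouse 1 and -0.18 without LFD mouse 3, and it lay within 0.01 of 0 without LFD mouse 2.

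*Aqp7*, the aquaglyceroporin through which glycerol crosses the adipocyte membrane (chr4:41033074-41048139, - strand), was at 66.8, 118 and 75.8 TPM in HFD mice 1, 2 and 3 and at 87.6, 56.4 and 19.6 TPM in LFD mice 1, 2 and 3. Only LFD mouse 1 reached into the HFD range. The means were 87.0 ± 27.6 TPM in HFD and 54.5 ± 34.0 TPM in LFD (SD, n = 3 each), and the log2 fold change was 0.61 (SE 0.65, edgeR adjusted p = 0.84). It kept its direction when each mouse was left out in turn, between 0.15 and 1.49, the highest value being that without LFD mouse 1.

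The second group acylates the backbone. *Gpam*, the mitochondrial glycerol 3-phosphate acyltransferase that commits the backbone to lipid (chr19:55067268-55127238, - strand), was at 80.7, 131 and 38.3 TPM in HFD mice 1, 2 and 3 and at 160, 159 and 43.1 TPM in LFD mice 1, 2 and 3. LFD mice 1 and 2 lay above every HFD mouse, and LFD mouse 3 lay near the bottom. The log2 fold change was -0.44 (SE 0.77, edgeR adjusted p = 0.917), and 0.24 without LFD mouse 1.

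*Agpat2*, the acyltransferase that makes phosphatidate from lysophosphatidate and whose loss causes lipodystrophy (chr2:26593057-26604417, - strand), was at 443, 536 and 131 TPM in HFD mice 1, 2 and 3 and at 1238, 409 and 96.1 TPM in LFD mice 1, 2 and 3. Among the LFD mice the highest level was 12.9 times the lowest. The log2 fold change was -0.68 (SE 1.13, edgeR adjusted p = 0.913), 1.15 without LFD mouse 1 and 0.06 with the mouse number as a block. The plain difference of mean log2 CPM, without a block, was 0.04. Whether counting used strand is not given in the sources used here, and *Agpat2* overlaps *Egfl7* by 64 bases and *Gm20532* over its whole length on the other strand, so reads in the shared bases are of uncertain origin. *Egfl7* had 581 to 2863 counts per mouse and *Gm20532* had 8 to 96.

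The third group is the lipins, phosphatidate phosphatases that yield diacylglycerol and also act as transcriptional coregulators. *Lpin1*, the lipin that predominates in adipose tissue (chr12:16535669-16610966, - strand), was at 55.4, 61.1 and 19.2 TPM in HFD mice 1, 2 and 3 and at 164, 88.8 and 22.4 TPM in LFD mice 1, 2 and 3. As for *Gpam*, the mice numbered 3 were lowest in both diets. Its log2 fold change was -0.99 (SE 0.96, edgeR adjusted p = 0.819), and 0.29 without LFD mouse 1.

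*Lpin2* (chr17:71182560-71249817, + strand) was the only one of the 10 whose diets did not overlap in log2 CPM. Its log2 CPM was 5.05, 5.03 and 5.35 in HFD mice 1, 2 and 3 and 4.24, 4.56 and 4.86 in LFD mice 1, 2 and 3, so every HFD mouse lay above every LFD mouse. All HFD mice lay above all LFD mice for 1 of the 10 genes, beside 6.72% of all genes tested, and below for 0 of the 10, beside 9.23%. The exact two-sided permutation test gave p = 0.1, the smallest that 3 mice against 3 can reach. The log2 fold change was 0.58 (SE 0.24), a fold of 1.49, with an unadjusted p of 0.0448 in the edgeR fit and an adjusted p of 0.464. *Lpin2* was thus the 1 gene of the 10 at an unadjusted p under 0.05 among those higher in HFD, beside 3.86% of all genes, and 0 were lower, beside 6.62%. With the mouse number as a block the edgeR adjusted p of *Lpin2* was 0.191. That it was higher in HFD in 3 of 3 pairs follows from the lack of overlap and adds nothing to it.

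The separation of *Lpin2* did not carry over to every scale. In TPM the values were 8.90, 15.8 and 21.5 in HFD mice 1, 2 and 3 and 7.17, 13.2 and 17.7 in LFD mice 1, 2 and 3, so the diets overlapped although each HFD mouse stood above the LFD mouse of its number. The transcript length given with the TPM ranged from 2391 to 3061 bases for this gene among the mice. Without 1 mouse, the fold change stayed between 0.43 and 0.74, and its unadjusted edgeR p was above 0.05 for each mouse left out except LFD mouse 3. That p was also 0.0572 with no filter on low counts, and on the log2(TPM + 1) scale limma gave a difference of 0.26 (SE 0.47, adjusted p = 0.973). The median of all genes was -0.18 on that scale, against -0.05 in the main fit.

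*Lpin3* (chr2:160880670-160906002, + strand) was the least abundant of the 10, at 3.66, 5.47 and 5.77 TPM in HFD mice 1, 2 and 3 and 3.08, 5.91 and 17.9 TPM in LFD mice 1, 2 and 3. A single mouse, LFD mouse 3, stood above the other five. The log2 fold change was -0.45 (SE 0.42, edgeR adjusted p = 0.80), and 0.16 without that mouse. *Lpin3* and *Lpin2* each overlap a noncoding gene of 4 to 21 counts per mouse, *Gm26561* in *Lpin2*, and 7 to 19, *Gm16751* in *Lpin3*.

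The makeup of the lipin family varied widely among mice of the same diet. *Lpin1* made up 81.5%, 74.2% and 41.4% of the summed lipin TPM in HFD mice 1, 2 and 3 and 94.1%, 82.3% and 38.7% in LFD mice 1, 2 and 3. In the mice numbered 3 the other lipins together exceeded *Lpin1*, with *Lpin2* at 46.2% in HFD mouse 3 and 30.5% in LFD mouse 3. The log2 ratio of *Lpin1* to the other lipins was 1.06 ± 1.38 in HFD and 1.85 ± 2.36 in LFD (SD, n = 3 each), a difference of -0.80 (exact two-sided permutation p = 0.7, adjusted over 3 ratios 0.8), and it was 0.28 without LFD mouse 1.

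The last step is catalysed by 2 unrelated diacylglycerol acyltransferases. *Dgat1* (chr15:76502015-76511953, - strand), which also re-esterifies fatty acids released by lipolysis, was at 84.7, 119 and 55.9 TPM in HFD mice 1, 2 and 3 and at 274, 220 and 58.7 TPM in LFD mice 1, 2 and 3. LFD mice 1 and 2 stood above all HFD mice, whereas LFD mouse 3 lay within the HFD range. The mean was 86.6 ± 31.8 TPM in HFD and 184 ± 112 TPM in LFD (SD, n = 3 each), and the log2 fold change was -1.02 (SE 0.75, edgeR adjusted p = 0.729). It stayed negative when each mouse was left out in turn, from -1.5 to -0.15, with the value nearest 0 found without LFD mouse 1.

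*Dgat2* (chr7:99153658-99182719, - strand), which channels newly made fatty acids into triglyceride, was at 506, 471 and 124 TPM in HFD mice 1, 2 and 3 and at 1700, 668 and 107 TPM in LFD mice 1, 2 and 3. The LFD mice again held both ends of the range, 15.9-fold apart. Its log2 fold change was -1.14 (SE 1.18, edgeR adjusted p = 0.83), -0.47 with the mouse number as a block and 0.51 without LFD mouse 1. The plain difference of mean log2 CPM, without a block, was also -0.47. The within-diet spread of *Dgat2* was larger than that of 99.0% of all genes tested. *Dgat2* exceeded *Dgat1* in every mouse, by 5.98, 3.94 and 2.21 times in HFD mice 1, 2 and 3 and by 6.20, 3.04 and 1.82 times in LFD mice 1, 2 and 3. The log2 ratio differed by 0.20 between diets (exact two-sided permutation p = 0.8, adjusted over 3 ratios 0.8), and leaving out single mice moved the difference from -0.22 to 0.67.

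**Figure D2:**
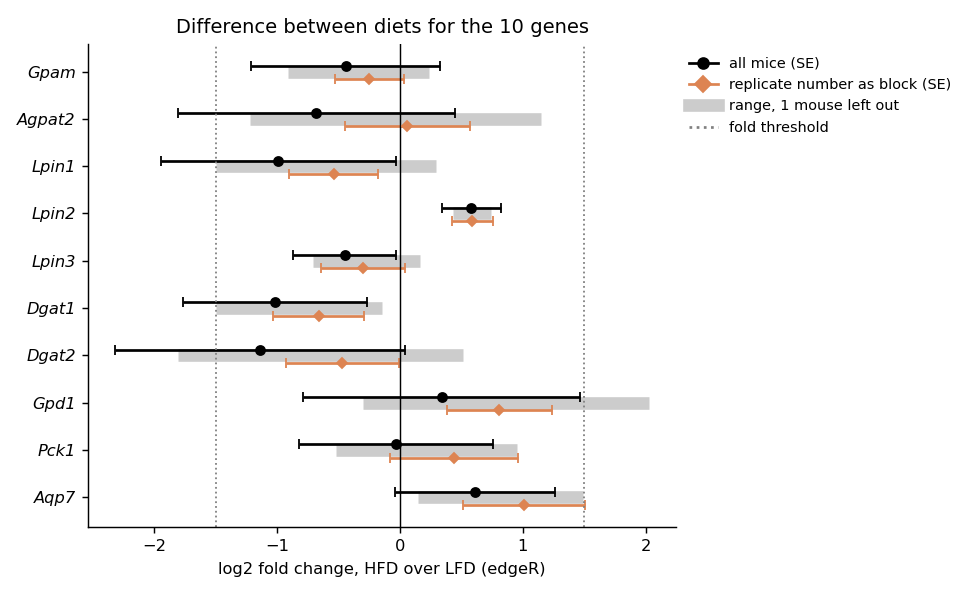
Log2 fold change of HFD over LFD from edgeR (horizontal axis) for each of the 10 genes, with all mice (black, SE), with the mouse number as a block (orange, SE), and as the range when 1 mouse was left out (grey); dotted lines mark the fold threshold of 1.5 either way. The grey ranges of *Lpin2*, *Dgat1* and *Aqp7* stay on 1 side of 0, and those of the other 7 genes cross it.

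The direction of the group as a whole rested on LFD mouse 1. Without that mouse the median log2 fold change of the 10 genes was 0.47 in place of -0.45, and 2 of 10 were lower in HFD in place of 7. Summed TPM of the 10 genes was 3370, 3920 and 1390 in HFD mice 1, 2 and 3 and 6670, 3070 and 835 in LFD mice 1, 2 and 3, so LFD mouse 1 was the highest and LFD mouse 3 the lowest. The LFD mice were more spread than the HFD mice in log2 CPM for 10 of 10 genes, beside 77.2% of all genes tested. With the mouse number as a block, 5 of 10 were lower in HFD and the median was -0.09. The plain difference of mean log2 CPM, which uses no block, lay close to the block value for each gene. For *Gpam*, *Agpat2*, *Dgat2* and *Pck1* it was -0.25, 0.04, -0.47 and 0.44, beside -0.25, 0.06, -0.47 and 0.44 with the block. The move away from the main fit was thus also seen without the mouse number.

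Most of the 10 genes were lowest in the same-numbered mouse of both diets. In log2 CPM, 8 of the 10 genes, all but *Lpin2* and *Lpin3*, were lowest in the mouse numbered 3 of both diets, beside 23.4% of all genes tested. The 8 general adipocyte markers moved with this, at a mean log2 CPM of 9.77, 9.13 and 8.33 in HFD mice 1, 2 and 3 and 11.12, 10.20 and 8.03 in LFD mice 1, 2 and 3. The share of counts from mitochondrially encoded genes was also lowest in the mice numbered 3, at 8.5% in HFD and 3.87% in LFD, against 9.12% to 22.7% in the others. *Lpin2* and *Lpin3* ran the other way, highest in the mouse numbered 3 of each diet, as 22.3% of all genes tested were. So did summed TPM of the 12 macrophage markers, at 2000, 2540 and 4150 in HFD mice 1, 2 and 3 and 667, 2820 and 4670 in LFD mice 1, 2 and 3. Summed TPM of the 6 endothelial markers did the same, at 100, 331 and 422 in HFD and 123, 188 and 240 in LFD. Their mean log2 CPM did so in HFD mice 1, 2 and 3 (5.55, 6.47 and 6.64). In LFD mice 1, 2 and 3 it was 5.65, 5.42 and 5.49, highest in mouse 1. Whether marker content accounts for these levels was not tested.

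**Figure D3:**
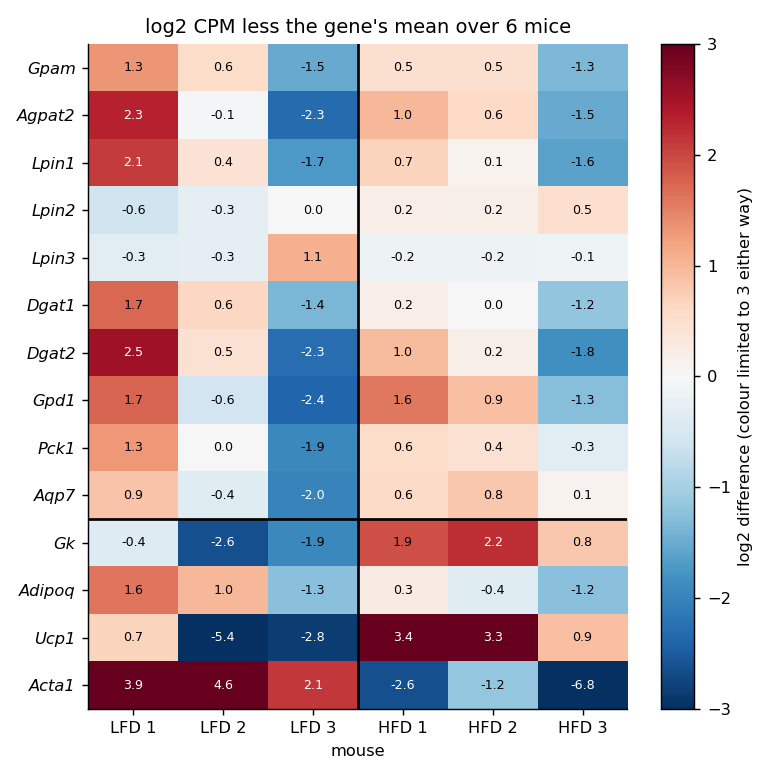
Log2 CPM of the 10 genes, of *Gk* (glycerol kinase) and of the markers *Adipoq* (adipocyte), *Ucp1* (brown adipocyte) and *Acta1* (skeletal muscle), each less its own mean over the 6 mice (colour and printed value, columns are mice). The mice numbered 3 are below the mean (blue) for *Gpam*, *Agpat2*, *Lpin1*, *Dgat1*, *Dgat2*, *Gpd1*, *Pck1* and *Adipoq* in both diets, and the diets do not overlap for *Lpin2*, *Gk*, *Ucp1* and *Acta1*.

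Ordered by mean TPM over the 6 mice, the genes stood as *Gpd1* (977), *Pck1* (763), *Dgat2* (596), *Agpat2* (475), *Dgat1* (135), *Gpam* (102), *Aqp7* (70.8), *Lpin1* (68.5), *Lpin2* (14.0) and *Lpin3* (6.96). The ranges of every pair of neighbours in this order overlapped. Within a mouse, *Agpat2* exceeded *Dgat1* in 6 of 6 mice, and *Gpd1* exceeded *Pck1* in only 3 of 6. *Pck1* stood at 0.453, 0.690 and 1.86 times *Gpd1* in HFD mice 1, 2 and 3 and at 0.682, 1.36 and 1.23 times in LFD mice 1, 2 and 3. The log2 ratio differed by -0.33 between diets (exact two-sided permutation p = 0.8, adjusted over 3 ratios 0.8), and by 0.12 without HFD mouse 1.

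Because these genes are adipocyte genes and adipocyte markers varied between mice, each gene was also expressed relative to the mean log2 CPM of the 8 general adipocyte markers in the same mouse, a scale chosen after the data were seen. The marker mean was 9.08 ± 0.72 in HFD and 9.78 ± 1.59 in LFD (SD, n = 3 each; exact two-sided permutation p = 0.5), so this scale raises the HFD over LFD difference of the median gene to 0.71. On it, *Aqp7* stood at -2.90, -2.02 and -1.93 in HFD mice 1, 2 and 3 and at -3.97, -4.26 and -3.73 in LFD mice 1, 2 and 3, every HFD mouse above every LFD mouse. *Pck1* stood at 0.99, 1.52 and 1.53 in HFD mice 1, 2 and 3 and at 0.38, -0.01 and 0.23 in LFD mice 1, 2 and 3, again without overlap. The differences were 1.71 for *Aqp7* and 1.14 for *Pck1*, or 1.00 and 0.44 above that of the median gene, and the exact two-sided permutation p of each was 0.1, the smallest possible. All HFD mice lay above all LFD mice for 2 of the 10 genes on this scale, beside 4.53% of all genes tested, and below for 0 of the 10, beside 1.9%. One marker, *Cfd* (the adipsin of adipocytes, log2 fold change -3.26), carried much of the shift, which was 0.37 with the other 7 markers. With those, *Aqp7* differed by 1.37 and *Pck1* by 0.80, both still without overlap, and all HFD mice lay above for 2 of the 10, beside 3.18% of all genes tested. All HFD mice then lay below all LFD mice for 1 of the 10, *Dgat1*, beside 2.71%, at a difference of -0.29 (exact two-sided permutation p = 0.1), and its nearest values were -2.53 in HFD mouse 2 and -2.51 in LFD mouse 2.

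The remaining genes overlapped between diets relative to all 8 markers. *Gpd1* differed by 1.51, with LFD mouse 1 at 0.94 above HFD mouse 3 at 0.70, and *Lpin2* by 1.3. *Agpat2*, *Gpam*, *Lpin3*, *Dgat2*, *Lpin1* and *Dgat1* differed by 0.74, 0.46, 0.41, 0.23, 0.16 and 0.05. Of these, all but *Agpat2* fell short of the shift of the median gene. *Dgat1* was the most closely tied to the markers, with an SD between mice of 0.25 in HFD and 0.11 in LFD on this scale against 0.75 and 1.57 in log2 CPM.

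**Figure D4:**
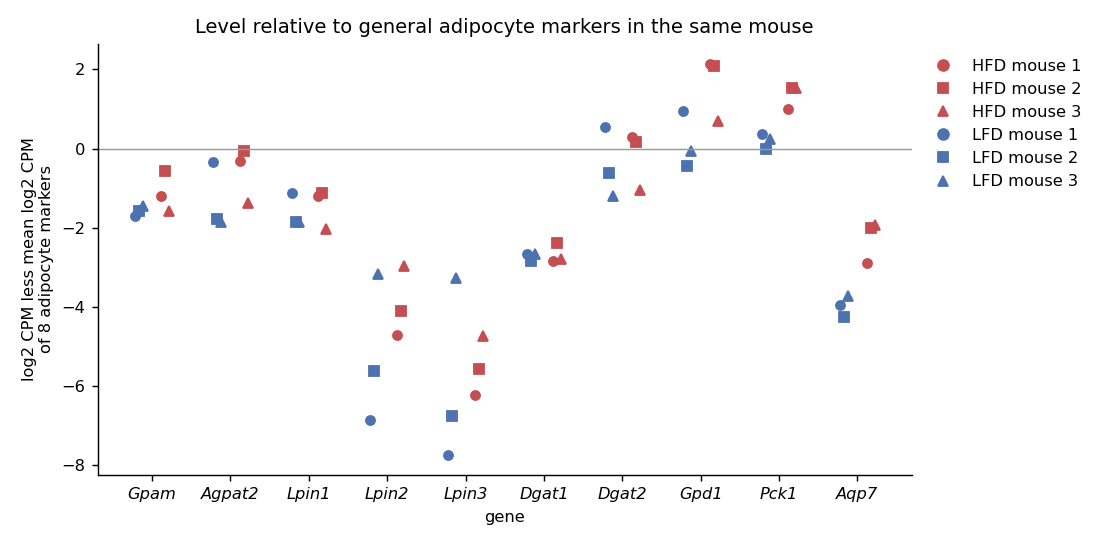
Log2 CPM of each gene less the mean log2 CPM of 8 general adipocyte markers in the same mouse (vertical axis), for HFD mice (red) and LFD mice (blue), with symbols marking the mouse number. The 3 red points lie above the 3 blue points for *Pck1* and *Aqp7*, and the points of *Dgat1* lie between -2.85 and -2.40.

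The other genes of the pathway were taken as 3 lists of 31 genes in all, of which 29 were tested. None passed the threshold in the edgeR fit, and 4 had an unadjusted p under 0.05, or 13.8% beside 10.5% of all genes tested. With the mouse number as a block 9 of the 29 did, or 31.0% beside 17.5%. Without LFD mouse 1 the count was 7, or 24.1% beside 14.3%, and without LFD mouse 3 it was 10, or 34.5% beside 17.3%. DESeq2 called 2 of the 29, *Gk* and *Fitm1*, beside 412 of 29856 genes in all.

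Of 10 tested genes of glycerol and glycerol 3-phosphate supply, 1 was higher in HFD at an unadjusted edgeR p under 0.05 and 0 were lower. Over all genes tested, 3.86% were higher and 6.62% lower at that p. The median log2 fold change of the list was -0.30, against -0.05 for all genes tested. The 1 higher gene was *Gk*, glycerol kinase, which phosphorylates free glycerol to glycerol 3-phosphate (chrX:85701937-85776819, - strand). *Gk* was at 78.6, 161 and 60.1 TPM in HFD mice 1, 2 and 3 and at 17.8, 7.29 and 10.8 TPM in LFD mice 1, 2 and 3, so the lowest HFD mouse was above the highest LFD mouse. The log2 fold change was 3.10 (SE 0.69, a fold of 8.59), with an edgeR adjusted p of 0.192, 0.0896 with the mouse number as a block, and a DESeq2 adjusted p of 4.54e-04. It stayed between 2.72 and 4.02 when each mouse was left out in turn. *Ucp1* moved with it, at a log2 fold change of 3.67 (SE 1.56, edgeR adjusted p = 0.48), and whether the 2 share a source was not tested. *Tpi1* (triose phosphate isomerase) and *Mdh1* (cytosolic malate dehydrogenase), the most abundant of this list, had log2 fold changes of -0.35 (SE 0.49) and -0.53 (SE 0.80).

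Of 9 tested acylation genes, 0 were higher and 1 was lower in HFD at an unadjusted edgeR p under 0.05, beside 3.86% and 6.62% of all genes tested. The median was -0.18, against -0.05 for all genes tested. *Agpat9*, listed under that symbol and also known as *Gpat3*, is a microsomal glycerol 3-phosphate acyltransferase. It was at 10.5, 9.73 and 8.31 TPM in HFD mice 1, 2 and 3 and at 68.0, 73.4 and 11.5 TPM in LFD mice 1, 2 and 3. LFD mouse 3 lay close to the HFD mice, and the log2 fold change was -2.34 (SE 0.82, edgeR adjusted p = 0.394). With each mouse left out in turn it ranged from -2.85 to -1.69, and the edgeR adjusted p from 0.0448 to 0.887. The -2.85 and the 0.0448 were both without LFD mouse 3. *Agpat3* and *Agpat1*, the most abundant of this list, had log2 fold changes of 0.72 (SE 0.62) and 0.04 (SE 0.41).

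Of 10 tested phosphatidate and lipid droplet genes, 0 were higher and 2 were lower in HFD at an unadjusted edgeR p under 0.05. The shares over all genes tested were 3.86% and 6.62%. The median was -0.14, against -0.05 for all genes tested. *Plpp3*, a lipid phosphate phosphatase of the cell surface, was at 16.7, 33.9 and 27.2 TPM in HFD mice 1, 2 and 3 and at 51.0, 66.9 and 76.7 TPM in LFD mice 1, 2 and 3, with no overlap (log2 fold change -1.14, SE 0.23, edgeR adjusted p = 0.177). Its DESeq2 adjusted p was 0.00274, and its DESeq2 log2 fold change of -1.13 fell short of the fold threshold. *Fitm1*, a fat storage protein expressed mainly in skeletal muscle, had 2, 6 and 1 counts in HFD mice 1, 2 and 3 and 124, 288 and 43 in LFD mice 1, 2 and 3 (log2 fold change -5.69, SE 0.96, edgeR adjusted p = 0.17, and 0.013 with the mouse number as a block). The muscle markers moved with it, at a median log2 fold change of -6.20 over 16 genes. *Bscl2* (seipin) and *Fitm2*, the most abundant of this list, had log2 fold changes of -1.09 (SE 0.70) and -0.61 (SE 0.71).

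**Figure D5:**
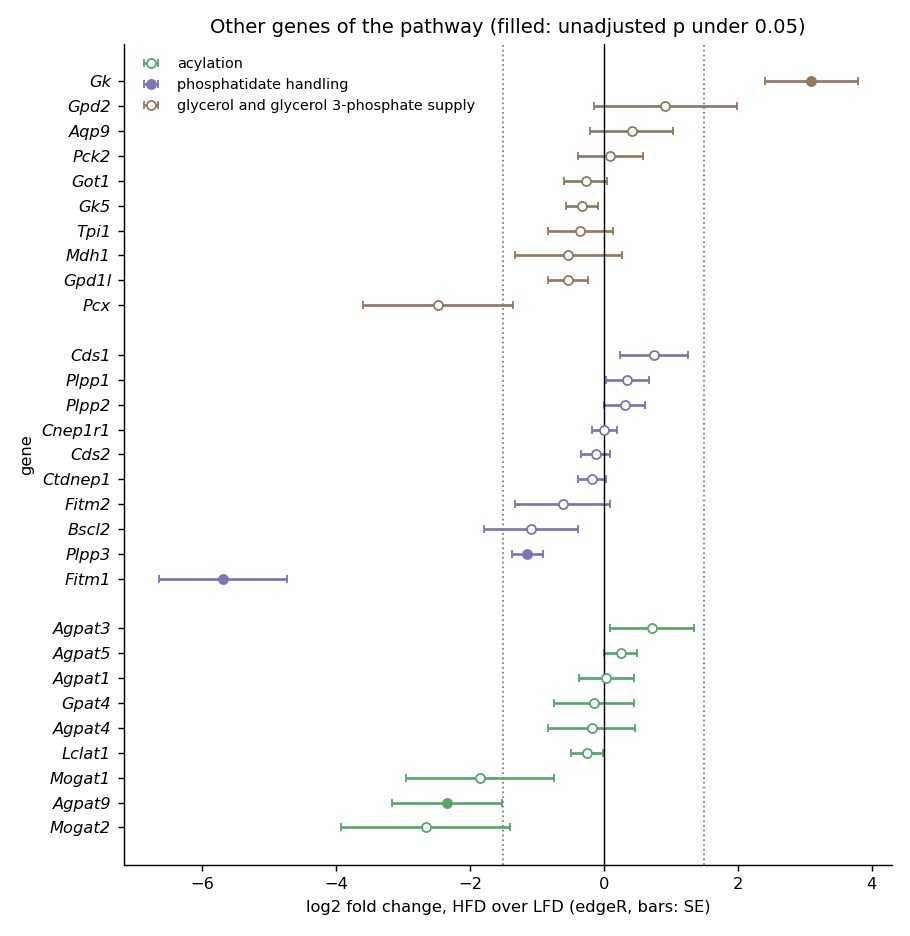
Log2 fold change of HFD over LFD with SE (edgeR, horizontal axis) for the 29 tested genes of the 3 lists, coloured by list, with filled points for an unadjusted p under 0.05 and dotted lines at the fold threshold of 1.5 either way. *Gk* lies farthest to the right at 3.10 and *Fitm1* farthest to the left at -5.69.

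The genes with the profile most like the mean of the 10 over the 6 mice, by root mean square difference of centred log2 CPM, were *Cisd1* (0.07), *Hsd17b12* (0.08) and *Mut* (0.10). The mean profile of the 10 was 0.60, 0.36 and -0.86 in HFD mice 1, 2 and 3 and 1.3, 0.05 and -1.45 in LFD mice 1, 2 and 3. Among the 10 themselves, *Gpam* (0.29) and *Pck1* (0.30) were nearest to that mean and *Lpin2* (1.15) and *Lpin3* (1.32) farthest from it.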

How the data were processed

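The authors removed ribosomal RNA, sequenced single-end reads of 75 bases, trimmed them with Trimmomatic 0.36 and quantified genes with RSEM 1.3.0 on GRCm38.p4 (Ensembl 84), as the submitters' processing notes and the study's methods state. The authors deposited, per mouse, expected counts (estimated, not whole), TPM and a transcript length for each gene. The expected counts, rounded to integers, were tested with edgeR 4.0.16 in R 4.3.3 (quasi-likelihood test, TMM scaling, filterByExpr, leaving 17668 genes), with Benjamini-Hochberg adjustment over all genes tested and the study's own threshold. Log2 CPM used TMM and a prior count of 2. Levels between genes were compared in TPM only. Single values and ratios were compared by exact two-sided permutation tests. DESeq2 1.42.0 and limma 3.58.1, the latter on log2(TPM + 1), served as alternatives, with RLE scaling, other count filters, a replicate block and each mouse left out. The scales relative to adipocyte markers, with and without *Cfd*, and the fit without the mice numbered 3 were chosen after seeing the data. The fit was tested on simulated data.

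Gene positions and overlaps came from GENCODE M21 on GRCm38, and promoters from RefSeq on GRCm38.p6. Named beside the 10 genes were, from each list, genes at an unadjusted p under 0.05 and the 2 of highest mean TPM, the 3 genes of the nearest profile, and *Ucp1*, *Adipoq* and *Acta1*. Further brown, white and general adipocyte markers were named where they departed from the rest of their list. *Pck1*, *Aqp7* and *Lpin2* promoters were chosen after their values were seen. The 10 genes and all lists were chosen with earlier results of these data known. Diet and number came from the sample titles. Deviations from the diet means of same-numbered mice correlated at 0.498, 0.229 and 0.522 across genes, and what a shared number stands for is not given in the sources used here. Libraries of 1 diet differed beyond counting noise.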

Additional observations from a re-analysis of the deposited data

How the results depend on the processing

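No member passed the threshold under any alternative run, and *Lpin2* and *Aqp7* were higher in HFD in all 16. The 16 reuse the same mice and are not independent, and those relative to adipocyte markers raise the median gene. *Aqp7* was lowest without LFD mouse 3, at 0.15. DESeq2 called 412 of 29856 genes in all and 2 of the 29 tested genes of the pathway lists, against 0 each in edgeR. The cause was not tested. With the replicate block, 9 genes of the lists had an unadjusted p under 0.05 in place of 4, *Agpat2* turned to 0.06 and *Pck1* to 0.44, and of the list genes *Gpat4* turned from -0.15 to 0.05 and *Agpat4* from -0.18 to 0.13. The block changed no call of these genes at the study's threshold. Without a block, the plain difference of mean log2 CPM was already 0.04 for *Agpat2* and 0.44 for *Pck1*. When single mice were left out, the count of 4 ranged from 3 to 10. *Pck1* was 0.0016 with at least 10 counts in every mouse and 0.20 in log2(TPM + 1), a scale on which the median of all genes was -0.18. In that scale 0 members were without overlap in place of 1, and relative to adipocyte markers 2, or 3 when *Cfd* was left out of the markers. Without the mice numbered 3 *Lpin3* was 0.18. Relative to adipocyte markers, which shift the median gene to 0.71, *Gpam* was 0.46, *Agpat2* 0.74, *Lpin1* 0.16, *Lpin3* 0.41, *Dgat1* 0.05, *Dgat2* 0.23 and *Pck1* 1.14. Without *Cfd* the shift was 0.37 and *Gpam* was 0.12, *Agpat2* 0.40, *Lpin3* 0.07 and *Pck1* 0.80.

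With single mice left out, log2 fold changes ranged from -0.91 to 0.24 for *Gpam*, -1.22 to 1.15 for *Agpat2*, -1.5 to 0.29 for *Lpin1*, -0.71 to 0.16 for *Lpin3*, -1.81 to 0.51 for *Dgat2*, -0.30 to 2.03 for *Gpd1* and -0.52 to 0.95 for *Pck1*. The differences in ratio ranged from -0.22 to 0.67 for *Dgat2* over *Dgat1*, -2.05 to 0.28 for *Lpin1* over the other lipins and -0.90 to 0.12 for *Pck1* over *Gpd1*. With 3 mice per diet, SEs of 0.65 to 1.18 on the log2 scale for all members but *Lpin2* and *Lpin3* limit what could be seen.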
